A study of Mus musculus with 12 samples.

Results

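The replication-dependent histone genes encode the histones packaging newly made DNA and are found here by the names Hist1 to Hist4. The name does not show that a gene is replication-dependent, and testis forms are among the genes kept. The genes described here were chosen by symbol, by protein-coding type and by a raw read count of at least 10 in at least 4 of the 12 libraries. This kept 68 of 50600 listed genes, which divide into 6 H1, 19 H2A, 18 H2B, 12 H3 and 13 H4 genes. All libraries were made from the descending thoracic part of the aorta (left subclavian artery down to the diaphragm) of C57BL/6J mice of genotype Elastin +/-, which carry 1 functional copy of the gene for elastin, and all are labelled 3 months old. Control mice (n = 4) drank plain water. On-drug mice (n = 4), starting at an age of 2.5 months, drank water with minoxidil during 2 weeks. Minoxidil lowers blood pressure by opening potassium channels that ATP closes. Off-drug mice (n = 4) had those 2 weeks and then 1 week without it. No dose or sex is given in the labels, and wild-type animals and other doses are not analysed here. The labels give 4 mice and 4 samples per group, with no cage or collection date.

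The series compared the vessel wall at the end of drug treatment and after withdrawal with the untreated wall. Libraries held 41524501 to 109423243 counts, and the histone genes took 0.193% ± 0.005 (SD, n = 4) of the counts in controls, 0.215% ± 0.022 on drug and 0.209% ± 0.029 off drug. Markers of smooth muscle were high in every library (8 genes, summed 16693 to 21759 CPM, which are counts per 1000000 counts of the scaled library). The tissue was thus rich in smooth muscle, which does not identify the vessel or its segment. In whole tissue, a smaller number of cells of a type and less RNA per cell cannot be told apart.

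Core histones H2A, H2B, H3 and H4 form the protein spool of the nucleosome, and the linker histone H1 binds where DNA enters and leaves it. Replication-dependent histone genes have no introns, lie in clusters, and are switched on together when DNA is copied in S phase. Their mRNAs are the known exception among cellular mRNAs in that most end not in a poly(A) tail but in a short stem-loop, bound by the protein SLBP and cut with the help of the U7 small RNA, and they are degraded quickly when replication stops. Some members can also be made as polyadenylated mRNA in cells that no longer divide. The artery wall of an adult mouse contains few dividing cells.

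Of the 68 genes, 55 lie on chromosome 13, 10 on chromosome 3, 2 on chromosome 11 and 1 on chromosome 6 (GRCm38). The stem-loop is shown for genes that the results turn on, because it is the feature that sets these mRNAs apart. Sequences are read from GENCODE M21 transcripts, 5′ to 3′ on the gene's strand, with the 16-base stem-loop in capitals.
Hist1h1e, chr13:23621777-23621802, minus strand: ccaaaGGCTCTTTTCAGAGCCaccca
Hist1h1c, chr13:23739507-23739532, plus strand: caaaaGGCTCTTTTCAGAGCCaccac
Hist1h1d, chr13:23555782-23555807, plus strand: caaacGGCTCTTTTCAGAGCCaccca
Hist1h3d, chr13:23576239-23576264, plus strand: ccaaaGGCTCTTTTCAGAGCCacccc
Hist1h3g, chr13:23535884-23535909, plus strand: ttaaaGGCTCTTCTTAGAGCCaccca
Hist1h2bk, chr13:22036295-22036320, plus strand: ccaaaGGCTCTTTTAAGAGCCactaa
Hist1h4n, chr13:21831793-21831818, minus strand: ctaaaGGCCCTTTTCAGGGCCatcca
Hist3h2a, chr11:58955167-58955192, plus strand: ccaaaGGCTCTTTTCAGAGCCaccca
The 3 H1 genes, Hist1h3d and Hist3h2a share the same 16 letters, which were the most common form and stood in 26 genes. A stem-loop was found in 46 of the 68 genes, a median of 31 bases (range 21 to 58) after the stop codon. In 17 of the others fewer than 60 bases were annotated after the stop codon, 1 had no coding transcript, and in 4 (Hist2h2be, Hist1h2bc, Hist1h2bq and Hist1h2br) no match was found in the annotated sequence. For 18 genes, Hist1h1e and Hist1h1c among them, the annotation runs more than 200 bases beyond the stem-loop. Whether the libraries were made by poly(A) selection or by removal of ribosomal RNA is not given in the sources used here.

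The promoters of the 3 H1 genes are shown because these genes were called together in the first comparison. The 125 bases before the annotated start are printed (RefSeq, GRCm38.p6), with the searched motifs in capitals.
Hist1h1e, chr13:23622559-23622683, minus strand: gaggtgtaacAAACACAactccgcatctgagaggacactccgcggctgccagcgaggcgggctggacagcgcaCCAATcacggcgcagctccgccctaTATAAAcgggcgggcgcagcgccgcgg
Hist1h1c, chr13:23738682-23738806, plus strand: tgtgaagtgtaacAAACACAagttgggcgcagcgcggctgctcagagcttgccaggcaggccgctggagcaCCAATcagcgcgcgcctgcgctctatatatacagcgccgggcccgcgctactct
Hist1h1d, chr13:23554907-23555031, plus strand: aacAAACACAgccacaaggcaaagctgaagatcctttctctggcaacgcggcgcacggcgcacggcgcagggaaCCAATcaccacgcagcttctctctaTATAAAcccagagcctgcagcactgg
Motifs were searched on both strands of promoters of 300 bases, of which 61 could be matched to members. The letters AAACACA, known as the H1 box, stood in 5 of 6 H1 promoters (83.3%), against 7.14% of all 27025 promoters. CCAAT stood in all promoters of H1, H2A, H2B and H3 genes that were matched but in 25% of 12 H4 promoters, and in 37.9% of all promoters. TATAAA stood in 57.4% of member promoters against 14.2% of all, and the octamer ATTTGCAT in 41.2% of H2A and 37.5% of H2B promoters against 1.75% of all. Each motif was counted separately, matches of different motifs may overlap, and a match is a description of the letters only.

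Coding sequences within a class are close copies. The 13 H4 genes encode 1 protein sequence and the 12 H3 genes 3, while the 6 H1 genes each encode their own. The deposited counts give a read that maps to several places to each of them, so near-identical genes share reads and class sums count some reads more than once. The share of a gene's 50-base windows that also occur in another gene had a median of 1.13% in H1, 39.5% in H4, 46.9% in H2B, 62% in H3 and 67.6% in H2A. As a class, H1 is therefore the least affected (at most 32% of windows, in Hist1h1e), and values of most single H2A or H3 genes are uncertain. Some core genes share fewer windows than Hist1h1e, among them Hist2h2be (0%), Hist2h4 (1.01%) and Hist1h2ac (14.1%). In addition, 24 members share exon bases with an overlapping gene, and counting did not use strand.

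In RPKM, which is CPM per kilobase of exon and allows levels of different genes to be compared, the highest genes of their classes over all libraries were Hist2h2aa2 (311), Hist1h4d (231), Hist1h1e (133), Hist1h2bc (129) and Hist1h3g (72.7). All windows of Hist2h2aa2 also occur in another gene, and its neighbour Hist2h2aa1 had nearly the same level (151 against 152 CPM in controls), so these are not separate measurements. The lowest was Hist1h1t, the testis form of H1, at 0.191 RPKM. It passed the choice of members most narrowly, with 4 libraries at 10 counts or more (23 in on-drug replicate 1, and 12, 16 and 14 in off-drug replicates 1, 3 and 4) and 5 to 8 counts in the controls. The next was Hist1h2aa, another testis histone, with at least 10 counts in 8 libraries. No gene of this name pattern and type lay outside the threshold, and 66 of the 68 had at least 10 counts in all 12 libraries. All 68 also passed the filter of the test.

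**Figure D1:**
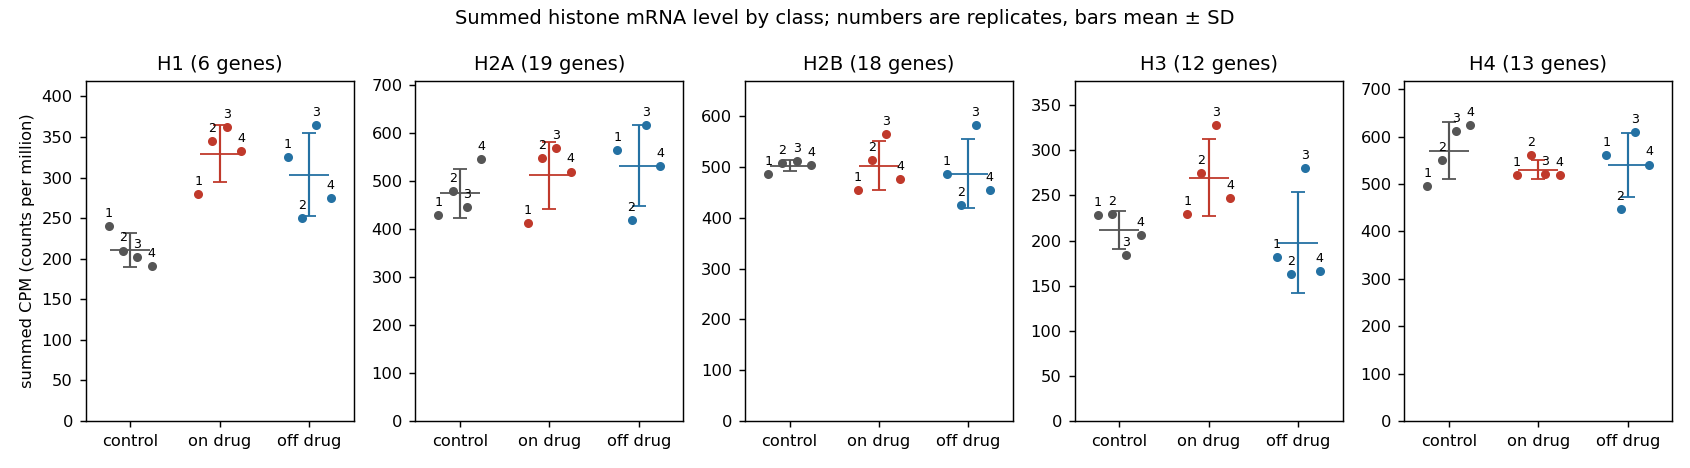
Summed level of each histone class in every library (vertical axis, CPM; horizontal axis, group; small numbers, replicate; bars, mean ± SD of 4). H1 lies at 191 to 240 CPM in controls and at 250 to 364 in both other groups, whereas the groups overlap in the other classes.

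H1 was the class whose summed level did not overlap between controls and the drug groups. Most of that sum came from Hist1h1c and Hist1h1e, so it is not a trait of each H1 gene. Off drug against controls, 4 of the 6 H1 genes had positive log2 fold changes and 2 negative ones. Summed H1 mRNA was 211 CPM ± 21.1 (SD, n = 4) in controls, 330 ± 35.5 on drug and 304 ± 51.2 off drug, with every library of either drug group above the highest control. Per 100 core histone counts, H1 stood at 12.05 ± 1.88 in controls (10.2 to 14.6), 18.2 ± 0.642 on drug (17.3 to 18.9) and 17.3 ± 0.809 off drug (16.2 to 18.2). The summed core classes overlapped between all groups. H2A was at 474 ± 51.1, 511 ± 69.6 and 531 ± 83.7 CPM in controls, on drug and off drug, H2B at 502 ± 11.1, 502 ± 48.4 and 487 ± 68.1, H3 at 212 ± 21.2, 270 ± 43.0 and 198 ± 55.7, and H4 at 571 ± 59.7, 531 ± 20.8 and 540 ± 67.6. These sums carry no test, because the members were chosen with results known.

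After 2 weeks of minoxidil, 3 histone genes rose and 1 fell against controls (edgeR quasi-likelihood test, Benjamini-Hochberg adjusted p below 0.05 over all genes). All 3 that rose were H1 genes (3 of 6), and 0 of the 62 core histone genes rose in edgeR (3 had an unadjusted p below 0.05 in that direction, and DESeq2 called 3 higher). Among all 24660 genes tested, 4.13% rose and 2.94% fell, so the counts over the whole family (3 and 1 of 68) are near those shares. The groups did not overlap, with on drug higher, for 7 members (6.3% of all genes), namely the 3 H1 genes and 4 H3 genes, and for 0 members with on drug lower (6.01% of all genes).

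Hist1h1e encodes one of the major somatic H1 proteins. Its mRNA stood at 77.2, 67.5, 63.5 and 67.1 CPM in the control libraries, at 95.5, 127, 122 and 121 on drug, and at 118, 94.3, 136 and 106 off drug. Every library of both drug groups lay above every control. The log2 fold change was 0.76 ± 0.11 (SE) on drug (adjusted p = 0.00144) and 0.72 ± 0.11 off drug (adjusted p = 0.000713) in edgeR, and these calls held under all 21 other settings, including each library left out in turn. The off-drug and on-drug groups overlapped, with a difference of -0.03 ± 0.11 (adjusted p = 0.892).

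Hist1h1c, another major somatic H1 gene, stood at 140.0, 115, 115 and 101 CPM in controls, 151, 177, 189 and 176 on drug, and 181, 135, 189 and 146 off drug. All on-drug libraries were above all controls, while off-drug replicate 2 lay below control replicate 1. It rose on drug by 0.56 ± 0.12 log2 (edgeR adjusted p = 0.0138) and off drug by 0.47 ± 0.12 (adjusted p = 0.0216). The first call was lost without control replicate 3 (adjusted p = 0.0558) or on-drug replicate 3 (0.0519), and the second without any of control replicates 2, 3 and 4 and off-drug replicates 1 and 3 (0.0534 to 0.0710).

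Hist1h1d, the third somatic H1 gene called, stood at 16.3, 18.6, 15.8 and 17.0 CPM in controls and at 24.3, 30.8, 36.2 and 27.2 on drug. Off drug it was at 22.03, 15.2, 28.8 and 17.1, so 2 libraries lay above all controls, 1 among them and 1 below them. The rise on drug was 0.81 ± 0.19 log2 (edgeR adjusted p = 0.0252), lost without any control library or without on-drug replicate 2, 3 or 4 (0.0516 to 0.0874). Off drug the difference from controls was 0.30 ± 0.18 (adjusted p = 0.353). Off drug against on drug, Hist1h1d did not pass in edgeR, but 2 other tools called it lower. These were DESeq2 (-0.51, adjusted p = 0.01225) and limma-voom (-0.59, adjusted p = 0.01847).

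The remaining H1 genes were low. Hist1h1a and Hist1h1b, whose products are known mainly from dividing cells, had log2 fold changes on drug of 0.38 ± 0.29 and 0.63 ± 0.25 (edgeR adjusted p = 0.499 and 0.142). Their highest library was on-drug replicate 3, at 7.53 CPM for Hist1h1a and 6.76 for Hist1h1b, and off-drug replicate 3 was the highest of its group, at 6.51 and 4.48. Off drug against controls, Hist1h1a and Hist1h1b were the H1 genes with negative log2 fold changes, the lowest at -0.15, and neither was called.

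**Figure D2:**
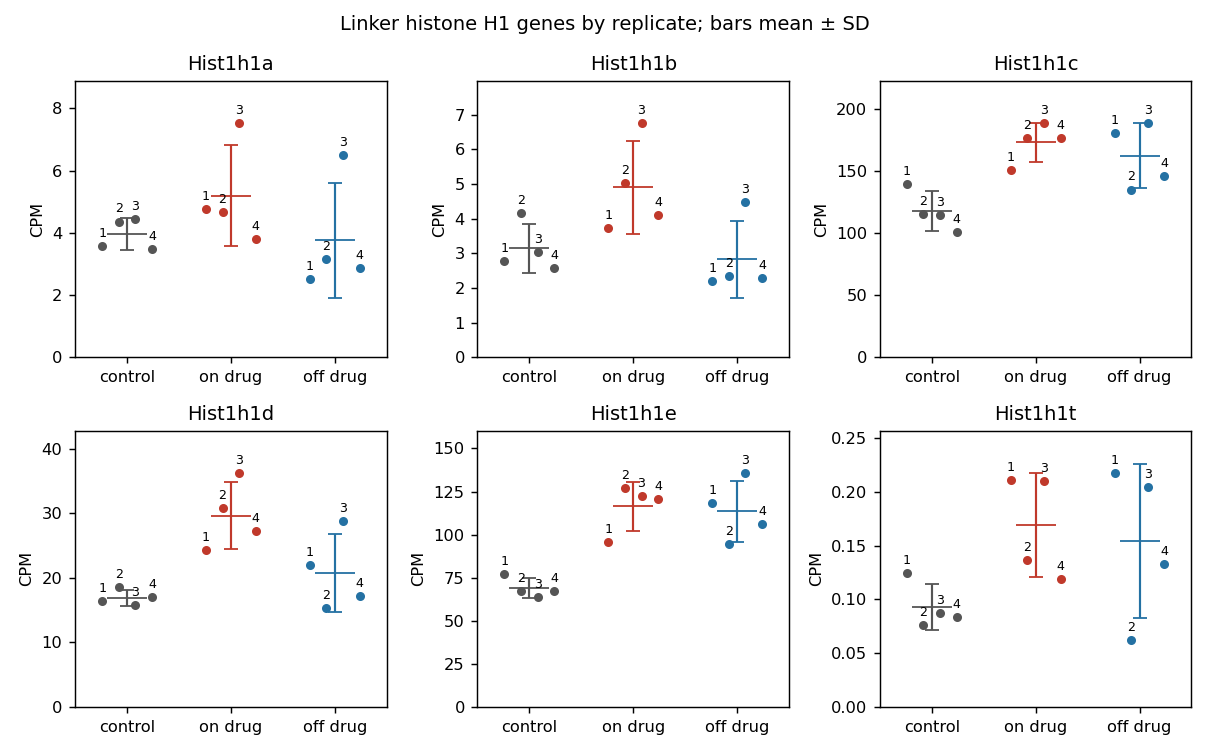
Level of each H1 gene in every library (vertical axes, CPM, each from 0; horizontal axis, group; small numbers, replicate; bars, mean ± SD of 4). For Hist1h1e all drug-group libraries lie above the controls, whereas off-drug values of Hist1h1d reach down to 15.2 CPM, below the lowest control.

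Among core histones on drug, the 12 H3 genes shared a direction. All 12 H3 genes had positive log2 fold changes (median 0.32, range 0.18 to 0.46), but 0 of 12 passed edgeR's adjusted threshold and 3 had an unadjusted p below 0.05. The same reads enter several of these genes, so 12 signs are not 12 separate measurements. Without on-drug replicate 3, the highest of its group for 10 of the 12, the median was 0.19. Hist1h3d stood at 17.2, 17.1, 15.8 and 15.9 CPM in controls and 22.1, 26.7, 24.2 and 18.0 on drug. Hist1h3g stood at 30.4, 31.6, 25.6 and 27.99 in controls and 31.9, 37.3, 47.7 and 33.9 on drug. For these 2 genes, Hist1h3e and Hist1h3b, every on-drug library was above every control, with adjusted p from 0.0701 (Hist1h3e, 0.43 ± 0.14) to 0.275 (Hist1h3g, 0.38 ± 0.19). DESeq2 called Hist1h3d, Hist1h3e and Hist1h3b higher, which brings its count of higher members to 6, where it called 5.98% of all genes higher.

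H2A, H2B and H4 genes had median log2 fold changes of 0.08, -0.01 and -0.12 on drug, and in edgeR none was called higher (0 at an unadjusted p below 0.05). The medians for H2A and H2B changed sign under some settings or left-out libraries (H2A -0.07 to 0.16, H2B -0.10 to 0.03). The H4 median kept its sign but ran from -0.19 without control replicate 1 to -0.05 without control replicate 3. Hist2h2be was the 1 gene that fell, by 0.33 ± 0.09 on the log2 scale (edgeR adjusted p = 0.0330). It is an H2B gene in which no stem-loop was found, and no 50-base window of it occurs in another gene. Its values were 17.5, 15.4, 15.9 and 13.4 CPM in controls and 11.7, 13.8, 11.3 and 12.8 on drug, so on-drug replicate 2 reached into the control range. The call was lost in 10 of 21 other settings, among them limma-voom (adjusted p = 0.0551) and the fit without on-drug replicate 3 (0.106).

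**Figure D3:**
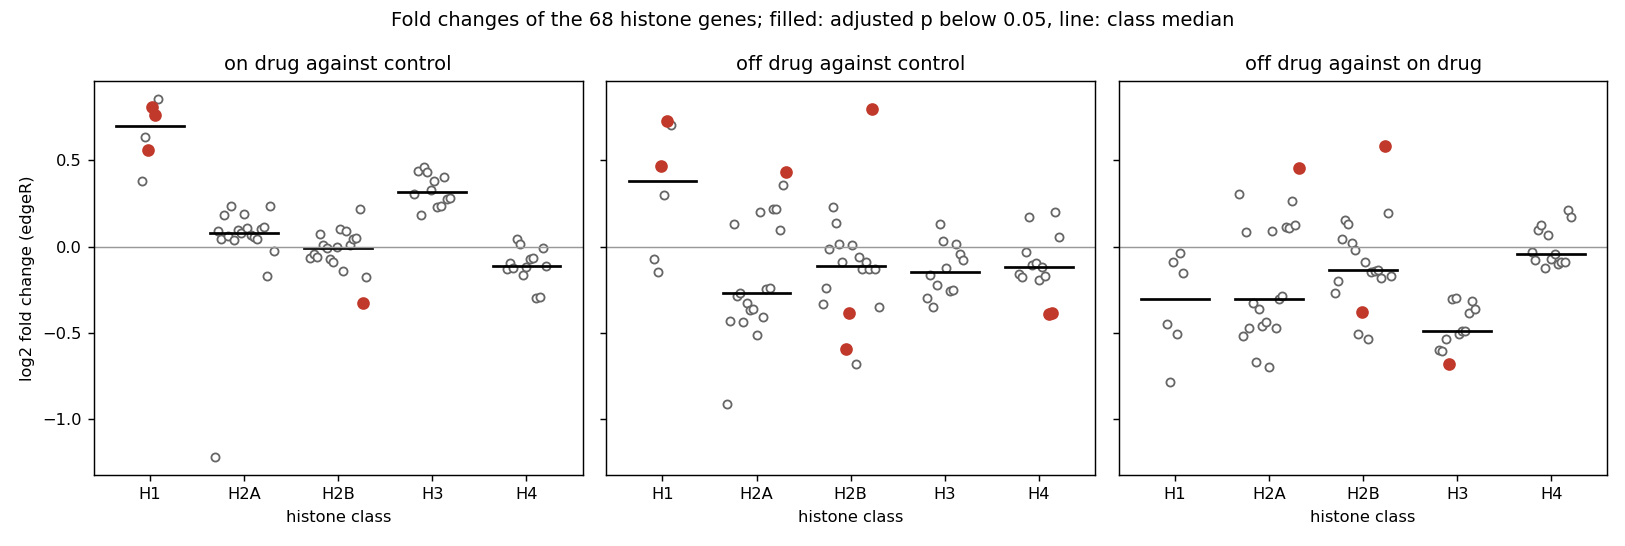
Log2 fold change of each of the 68 histone genes (vertical axis) by class (horizontal axis) in the 3 comparisons. Filled points have an adjusted p below 0.05 and lines are class medians. H1 and H3 lie above 0 on drug, and both lie below 0 for off drug against on drug (medians -0.30 and -0.49).

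One week after withdrawal, 4 histone genes were called higher and 4 lower than in controls, near the shares over all genes (6.27% higher and 5.77% lower in edgeR). Groups did not overlap for 3 members with off drug higher (9.2% of all genes) and for 0 with off drug lower (7.73%). The genes that rose were the H1 genes Hist1h1e and Hist1h1c described above, Hist2h2bb and Hist3h2a. Those that fell were the H4 genes Hist1h4m and Hist1h4n and the H2B genes Hist1h2bj and Hist1h2bk. Against on-drug samples, 2 members rose (Hist2h2bb and Hist3h2a) and 2 fell (Hist1h3d and Hist1h2bk), where 5.44% of all genes rose and 6.92% fell. In that comparison the same 2 that rose had no overlap (9.44% of all genes), and 0 members were lower without overlap (9.37%). The comparisons share their control or drug samples and are not independent.

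These counts depend on which libraries enter. Off-drug replicate 3 was the highest of the 4 off-drug libraries for 61 of 68 histone genes and for all 12 H3 genes, whereas it was the highest for 25.6% of all genes tested. Its H3 sum was 280 CPM, beside 182, 163 and 167 in off-drug replicates 1, 2 and 4. Without it, 18 members instead of 4 were lower off drug than in controls (3.94% of all genes), and 25 instead of 2 were lower off drug than on drug (5.18% of all genes). The 25 were 9 H3, 7 H2A, 5 H2B, 3 H1 and 1 H4 genes, and the 18 were 6 H3, 5 H2B, 4 H2A and 3 H4 genes. Off-drug replicate 3 was picked out because it stood high for these genes. Leaving it out therefore enlarges falls by selection, so the added calls are not support for a fall. On drug against control, a comparison of groups that do not hold this library, 8 members rather than 3 were higher (3.59% of all genes), namely the 3 H1 genes and 5 H3 genes. The 3 groups share 1 estimate of the spread in the model, so leaving out this library also changes that comparison. Since the library was picked out for these genes, the added calls on drug are no support for a rise either. The H3 median log2 fold change on drug was 0.32 with this library in the model and 0.31 without it. Nothing in the labels sets this library apart, its total of 77930702 counts lies within the range of its group, and its part in the result was not tested further. Other libraries also stood at one end of their group: off-drug replicate 2 was the lowest for 45 members (25.9% of all genes tested), all 13 H4 genes among them, on-drug replicate 3 the highest for 44 (25.7%) and on-drug replicate 1 the lowest for 42 (27.1%). The count of members lower off drug than in controls went from 4 to 2 without control replicate 1 or 2 or off-drug replicate 1, to 1 without control replicate 3, and to 0 without control replicate 4 or off-drug replicate 2 or 4. The count lower off drug than on drug went from 2 to 1 without control replicate 2 or 3, and to 0 without control replicate 1 or 4, on-drug replicate 3, or off-drug replicate 1, 2 or 4. With all 12 libraries, limma-voom called 12 and DESeq2 called 13 lower in that comparison, beside 8.51% and 8.91% of all genes.

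**Figure D4:**
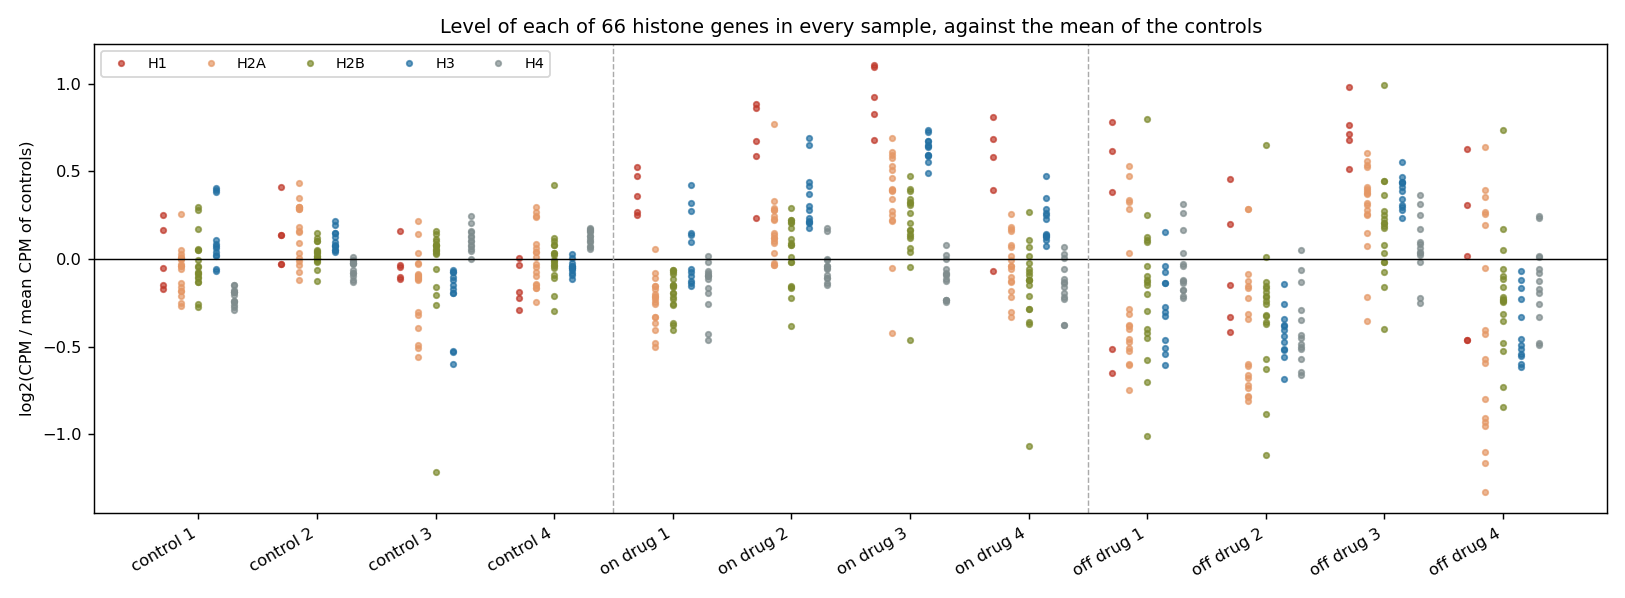
Level of 66 histone genes in every library (vertical axis, log2 of CPM over the mean CPM of the controls; horizontal axis, library; colours, class). Hist1h1t and Hist1h2aa, with under 10 counts in some libraries, are not drawn. In off-drug replicate 3 all H3 genes lie above 0, whereas in off-drug replicates 2 and 4 they lie below it.

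In calls, H3 genes showed this most, with 9 of 12 lower off drug than on drug without off-drug replicate 3. The median log2 fold change off drug against controls moved further in H2A. It went from -0.27 to -0.59 in H2A and from -0.15 to -0.39 in H3 without that library. Hist1h3d stood at 13.4, 11.5, 20.9 and 10.9 CPM off drug, so that 3 libraries lay below all controls and replicate 3 lay above them all. It fell from on drug to off drug by 0.68 ± 0.19 log2 (edgeR adjusted p = 0.0342), and without off-drug replicate 3 by 0.93 (adjusted p = 5.66e-05). Leaving out any other library except on-drug replicate 4 lost the call (adjusted p 0.0537 to 0.0976). Hist1h3b went from 26.4, 33.3, 32.0 and 23.4 on drug to 16.9, 15.995, 27.8 and 14.8 off drug, a difference of -0.61 ± 0.18 (adjusted p = 0.0548, and 6.39e-05 without off-drug replicate 3). For both genes that library was the highest of its group, so leaving it out enlarges the fall by selection. From on drug to off drug, all 12 H3 genes had negative differences (median -0.49), and so had all 6 H1 genes (median -0.30).

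Hist1h2bj and Hist1h2bk are H2B genes that lie close together on chromosome 13. Hist1h2bk stood at 43.3, 49.8, 41.1 and 49.4 CPM in controls, 43.8, 41.1, 49.9 and 48.1 on drug, and 33.5, 29.7, 45.4 and 31.9 off drug. The 3 off-drug libraries other than replicate 3 lay below every control and on-drug library. It fell off drug by 0.39 ± 0.12 against controls and by 0.38 ± 0.12 against on drug (edgeR adjusted p = 0.0449 and 0.0465), and each call was lost in 12 of 21 other settings. Hist1h2bj stood at 38.8, 40.3, 31.3 and 39.7 in controls and 23.1, 20.3, 33.6 and 22.6 off drug, a fall of 0.59 ± 0.15 (adjusted p = 0.0266), lost in 7 of 21. Without off-drug replicate 3 both falls were larger, at -0.54 for Hist1h2bk and -0.77 for Hist1h2bj against controls (adjusted p = 0.000691 and 0.000251). That library was the highest of its group for both genes, so the larger falls follow from leaving it out and add no support.

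The H4 genes Hist1h4m and Hist1h4n are near-identical copies that share most of their reads (89.8% and 85.6% of windows occur in another gene), so they amount to 1 measurement. Hist1h4n stood at 35.0, 41.1, 46.2 and 43.0 CPM in controls, 30.7, 37.3, 35.2 and 31.9 on drug, and 35.4, 26.5, 35.4 and 29.4 off drug. It fell by 0.39 ± 0.10 off drug (edgeR adjusted p = 0.0198), a call lost without control replicate 3 or 4 or off-drug replicate 2 or 4 (0.0563 to 0.0702). On drug the difference was -0.29 ± 0.10 (adjusted p = 0.0922). The other 11 H4 genes passed in neither direction in any comparison with all 12 libraries.

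Hist2h2bb and Hist3h2a, an H2B and an H2A gene, were the members called higher off drug against both other groups. Hist2h2bb stood at 13.9, 17.4, 17.8 and 18.3 CPM in controls, 15.2, 19.7, 23.4 and 20.3 on drug, and 29.3, 26.5, 33.5 and 28.1 off drug, with no overlap of the off-drug group with either other group. It rose by 0.80 ± 0.12 against controls and by 0.58 ± 0.12 against on drug (edgeR adjusted p = 0.000349 and 0.00326). Hist3h2a stood at 15.5, 15.6, 17.2 and 13.9 in controls, 13.4, 16.6, 15.01 and 16.3 on drug, and 21.6, 19.0, 22.9 and 20.4 off drug, and rose by 0.43 ± 0.09 and 0.46 ± 0.09 (adjusted p = 0.00347 and 0.00185). These 4 calls held in all 21 other settings.

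Both genes share their exons with other transcripts, so their counts are not those of histone mRNA alone. All 381 exon bases of Hist2h2bb lie under the antisense transcript Gm20628 and 226 of them under the noncoding transcript Gm42743. Gm20628 rose by 0.52 off drug against controls (edgeR adjusted p = 0.0251), and its difference from on drug was 0.22 (adjusted p = 0.352). Gm42743 rose by 0.80 off drug against controls and by 0.61 against on drug (edgeR adjusted p = 0.000425 and 0.00270). Hist3h2a shares 708 of 2146 exon bases with Trim17, a ubiquitin ligase gene, which rose by 0.40 and 0.43 (adjusted p = 0.00498 and 0.00216). Reads of the partners cannot be told apart in the overlapping bases. None of the H1 genes shares exon bases with another gene.

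Histone variants grouped as replication-independent were taken as a list of 11 genes. The name of the list does not show that each gene is made evenly through the cell cycle. On drug 2 rose and 0 fell (median log2 fold change 0.05), off drug 4 rose and 0 fell against controls (-0.01), and 2 rose and 1 fell against on drug (0.06). Over all genes tested, edgeR called 4.13% higher and 2.94% lower on drug, and 6.27% and 5.77% off drug against controls. The shares off drug against on drug were 5.44% and 6.92%. H3f3b, which encodes the variant H3.3, went from 92.7 CPM ± 13.9 in controls to 129 ± 15.7 on drug and 127 ± 5.95 off drug (log2 0.47 and 0.45, edgeR adjusted p = 0.00962 and 0.00703). H3f3a, which encodes the same protein and was the most abundant of the list, did not pass (394 ± 32.5, 376 ± 15.8 and 391 ± 10.4). H1f0, the linker histone of resting cells, was at 53.8 ± 14.2, 70.1 ± 7.66 and 83.1 ± 7.65 and rose off drug (0.63, adjusted p = 0.0260) but did not pass on drug (0.38, adjusted p = 0.179). Cenpa, the centromeric H3 variant, rose on drug by 0.64 (adjusted p = 0.0295) and fell from on drug to off drug by 0.82 (adjusted p = 0.00314).

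Of 25 genes for histone gene transcription and 3′ end processing, 1 rose and 1 fell in each comparison with controls, and 2 rose and 2 fell off drug against on drug. For this and the next 2 lists, the shares over all genes were 4.13% higher and 2.94% lower on drug. They were 6.27% and 5.77% off drug against controls, and 5.44% and 6.92% off drug against on drug. Slbp, the stem-loop binding protein, fell on drug from 25.8 CPM ± 1.19 to 20.7 ± 0.746 (log2 -0.31, edgeR adjusted p = 0.00673) and stood at 22.9 ± 0.924 off drug (adjusted p = 0.0958 against controls). Lsm11, a subunit of the U7 particle, fell off drug by 0.51 (adjusted p = 0.00468). Npat, the activator of these genes, stood at 37.3 ± 4.87, 36.6 ± 2.36 and 36.9 ± 2.33. Of 15 histone mRNA decay genes, 1 fell on drug (Dcp2, a decapping enzyme, -0.30, adjusted p = 0.0312), 0 passed off drug against controls in edgeR (2 at an unadjusted p below 0.05, 1 in DESeq2), and 1 fell off drug against on drug (Eri1, the exonuclease that trims histone mRNA ends, -0.30, adjusted p = 0.0185). Of 22 histone chaperones and carriers, 1 rose on drug and 1 off drug, in both cases Cabin1, a subunit of the complex that deposits H3.3 (0.40 and 0.30, adjusted p = 0.00290 and 0.00997), and 2 rose off drug against on drug (Dnajc9 and Anp32e).

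Histone mRNA is made in S phase, so genes of DNA replication and of mitosis were read beside it. The shares of all genes called were 4.13% higher and 2.94% lower on drug, and 6.27% and 5.77% off drug against controls. Off drug against on drug they were 5.44% and 6.92%. Of 28 DNA replication genes, 1 rose on drug, 3 rose off drug against controls, and 2 rose and 2 fell off drug against on drug, with medians of 0.08, 0.01 and 0.02. Gins2, a subunit of the replicative helicase, rose in both drug groups (0.60 and 0.57, edgeR adjusted p = 0.0219 and 0.0181), and Mcm4, another helicase subunit, rose off drug (0.45, adjusted p = 0.00217). Of 20 mitosis genes, 4 rose on drug, 8 fell off drug against controls and 15 fell off drug against on drug, with medians of 0.56, -0.57 and -1.05. Top2a, which untangles DNA, stood at 9.14 CPM ± 0.951, 13.3 ± 2.62 and 5.41 ± 1.76, and Mki67, the proliferation marker Ki-67, at 10.1 ± 2.13, 15.3 ± 3.45 and 6.51 ± 1.59 in controls, on drug and off drug. Both fell from on drug to off drug (-1.29 and -1.23, adjusted p = 0.00100 and 0.00263).

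**Figure D5:**
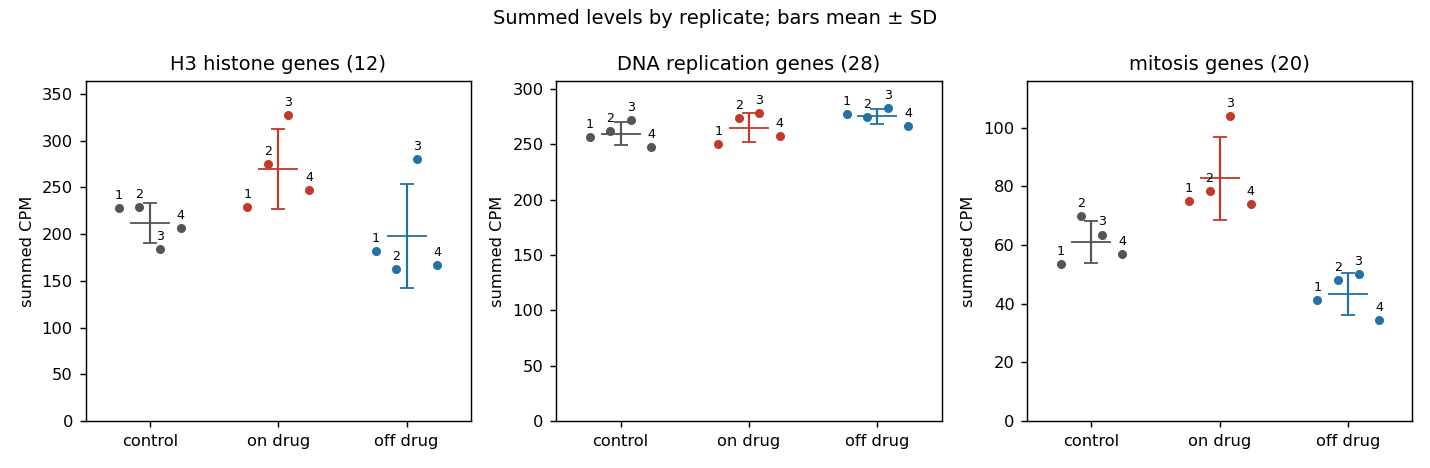
Summed level of the H3 genes, of 28 DNA replication genes and of 20 mitosis genes in every library (vertical axes, CPM, from 0; horizontal axis, group; small numbers, replicate; bars, mean ± SD of 4). Mitosis genes in off-drug replicate 3 stand at 50.05 CPM, below all controls, while its H3 sum of 280 CPM lies above them.

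In summed CPM, mitosis genes stood at 53.7 to 70.1 in controls, 73.9 to 104 on drug and 34.3 to 50.05 off drug, so the 3 groups did not overlap. DNA replication genes stood at 248 to 272, 250 to 279 and 266 to 283. On-drug replicate 3 had the highest mitosis sum (104 CPM) and also the highest H3 sum of its group (328 CPM). Off-drug replicate 3 had the highest H3 sum of its group and a mitosis sum of 50.05 CPM, the highest of the off-drug libraries but lower than in every control.

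Values of other RNA and cell types that moved between groups are given here, and their part in the histone results was not tested. Of 14 structured RNAs without poly(A) tail, 1 fell on drug (Rnu11, -1.17, edgeR adjusted p = 0.00649) and 0 passed off drug against controls or on drug (2 and 1 at an unadjusted p below 0.05, 1 and 0 in DESeq2). Their sum ran from 36213 to 60318 CPM in controls, 24603 to 41606 on drug and 33274 to 38362 off drug, with medians of -0.35, -0.27 and 0.13. For each list the 3 counts that follow compare on-drug samples with controls, off-drug samples with controls, and off-drug with on-drug samples. In the same order, edgeR called 4.13%, 6.27% and 5.44% of all genes higher and 2.94%, 5.77% and 6.92% lower. Macrophage markers (7) had 2 up, 3 down and 5 down, endothelial markers (6) 2 up, 1 down and 3 down, and adventitial fibroblast markers (6) 1 up, 1 down and 3 down. Smooth muscle markers (8) had 2 up, 4 up, and 1 up with 1 down, and skeletal muscle markers (6, at 5.08 to 18.8 CPM summed) 2 up, 2 up and 1 up. Erythroid markers (8) had 0, 7 down and 0 in edgeR (2, 7 and 3 at an unadjusted p below 0.05, 0, 7 and 2 in DESeq2), at 4953 to 20619 CPM summed in controls, 3906 to 6034 on drug and 2063 to 4833 off drug. T and B lymphocyte markers (8, at 3.48 to 21.8 CPM summed) and adipocyte markers (6) had 0 calls in all comparisons in edgeR. For lymphocyte markers on drug, 3 had an unadjusted p below 0.05 and DESeq2 called 1, and the other counts of both lists were 0. None of these markers was at 0 in any library.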

How the data were processed

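Whole-number read counts per gene were deposited for 12 libraries, made by the authors with featureCounts (1.4.6-p3) and the M13 release of GENCODE, per the file headers. The genome build was GRCm38, per the submitters' processing notes. Per the file headers, reads mapping to several places or genes were counted for each and no strand was set. The deposited series table holds log2 values, equal to log2(count / size factor + 1) within 5e-09, and was used only for symbols and types. Counts were tested with edgeR 4.0.16 in R 4.3.3: filterByExpr (minimum count 10, total 15), TMM scaling, 1 robust quasi-likelihood model with 3 groups, 3 two-sided contrasts, Benjamini-Hochberg over 24660 genes. CPM uses TMM-scaled library sizes, and SEs come from the F statistic. The test was checked on simulated counts. DESeq2 1.42.0 and limma 3.58.1 (voom) were alternatives. Stem-loops, coding sequences and shared windows came from GENCODE M21, and promoters from RefSeq. Exon overlaps came from the M13 gene models in the deposited count files.

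The members, lists and tests were chosen with earlier results of these data known. Named members are those called in any comparison, those without overlap between 2 groups, the highest per length in each class and those nearest the count threshold. From each list, called genes with the smallest adjusted p and abundant genes were named. In the text, values in single libraries are given for many of the named members, but not always for every group. Counting error, estimated from the counts alone, was larger than the SD between samples in at least 1 group for 3 members (Hist1h1t, Hist3h2ba and Hist2h2be).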

Additional observations from a re-analysis of the deposited data

Results flagged for a closer look

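In 6 of 66 groups of 4 libraries examined (named genes and class sums), 1 library lay far from the other 3 relative to the group's range. Chance alone would mark about 1 in 20 independent groups. The named genes were picked by results and the class sums contain them, so 6 of 66 cannot be set against that rate. Of the 6 groups, 3 concern off-drug replicate 3, which was high for Hist1h3g (38.39 CPM, others at most 23.92), for Hist1h3b (27.78 CPM, others 14.85 to 16.91) and for the H3 sum (280.3 CPM, others 162.5 to 181.7). Control replicate 3 was low for Hist1h2bj (31.27 CPM, others 38.82 to 40.34). On-drug replicate 1 was low for Hist2h2aa2 (131.0 CPM, others 170.5 to 177.5). On-drug replicate 2 was high for the H4 sum (561.6 CPM, others 519.0 to 521.7).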

How the results depend on the processing

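Under 21 alternatives, 0 log2 fold changes of the named members with an unadjusted p below 0.05 changed sign, and 470 values kept their side of the threshold, 77 lost a call and 41 gained one. Values with such a p stand away from 0, so a change of sign was unlikely beforehand and its absence says little about stability. Each of the 15 class sums moved by less than its SD under 6 alternatives (90 values). These were the 2 other scalings and each of the 4 libraries of its group left out. Leaving out 1 of 4 values cannot shift their mean by as much as their SD. Only the 2 scalings therefore bear on how stable the sums are. Counts of calls moved more, and the share of all genes called the same way is given in brackets. On drug against control, 3 members were higher (4.13%), and 6 were with DESeq2 (5.98%) and 6 with the 2 groups alone (2.96%). There 1 was lower (2.94%), and 0 were without composition factors (1.57%), with limma-voom (2.98%), with the 2 groups alone (2%) and with the replicate block (2.57%), but 3 with no filter (1.68%) and 3 with DESeq2 (5.56%). Off drug against control, 4 were higher (6.27%) and 7 without composition factors (7.58%), while 4 were lower (5.77%) and 2 with no filter (3.05%). Off drug against on drug, 2 were lower (6.92%), and 0 were with no filter (3.66%) and with the 2 groups alone (7.65%), 6 with the stricter filter (10.2%), 6 with the non-robust fit (6.89%), 12 with limma-voom (8.51%), 13 with DESeq2 (8.91%) and 9 with the replicate block (7.07%). Leaving out 1 library gave 1 to 8 higher and 0 to 2 lower on drug against control, 3 to 7 higher and 0 to 18 lower off drug against control, and 2 higher and 0 to 25 lower off drug against on drug. The largest values came without off-drug replicate 3, except 7 (without off-drug replicate 2) and 2 lower on drug (without control replicate 1). Replicate numbers are shared between groups but do not pair the samples (12 correlations of deviations, -0.0797 to 0.0672); the block left 4, 4 and 2 members higher and 0, 5 and 9 lower. Without composition factors the median of all genes shifted by 0.02 to 0.06 log2, and calls over all genes were 4.21% higher and 1.57% lower on drug against control and 7.58% higher and 3.42% lower off drug against control. The cause of these differences was not tested. Depth limits the members with few reads, such as Hist1h1t and Hist1h2aa, with under 10 counts in some libraries, and Hist3h2ba.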
